A study of Mus musculus with 4 samples.

Results

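Mouse embryonic stem cells carrying sea urchin PRDM14 were compared with cells that carried CBFA2T of the sea urchin in addition, on 1 array each. The comparison took every probe set that the platform annotation pairs with 1 gene symbol, 23521 of the 41345 on the array. These probe sets gave 22180 genes, each represented by its probe set with the highest mean over 4 arrays. Genes entered the comparison if at least 1 of the 4 arrays reached 4.84 on the log2 scale, which is the median over the named probe sets, and 12042 genes did. Because any 1 array can carry a gene past this filter, a gene bright on 1 array only is favoured.

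All cells in the study were embryonic stem cells lacking Prdm14, kept in medium with leukaemia inhibitory factor and 2 inhibitors on a layer of STO fibroblasts, so the controls carry the same deletion. The 4 groups were the knockout cells with an empty vector, with mouse PRDM14, with sea urchin PRDM14, and with sea urchin PRDM14 and CBFA2T, each with 1 array of strip 2. The design text speaks of a further strip, whose arrays were not analysed here. The labels do not say whether the cells were 1 clone or a pool, how the transgenes were driven, or how many cultures were used. Values below are log2 RMA signals of total RNA in the order empty vector, mouse PRDM14, sea urchin PRDM14, sea urchin PRDM14 with CBFA2T. A difference is the last minus the third, so that 1 on the log2 scale is 2-fold. Each group having 1 array, no value carries a replicate error, and no test was made. Differences are described by size, and the number of arrays limits their precision.

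PRDM14 is a DNA-binding protein of the PR domain zinc finger family that keeps stem cells in the naive state and acts in the specification of germ cells. CBFA2T proteins, also called the ETO family, do not bind DNA themselves but serve as scaffolds that join transcription factors to histone deacetylases, and mouse CBFA2T2 is a partner of PRDM14. Mouse stem cell cultures hold rare cells that briefly switch on genes of the 2-cell embryo, among them the Zscan4 genes, and DPPA2 is one of the factors known to promote that program.

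On the array with CBFA2T, 16 genes were higher by 2-fold or more and 6 lower by 2-fold or more than with sea urchin PRDM14 alone. These are 0.133% and 0.0498% of the genes past the filter. Whether CBFA2T caused the differences was not tested. The higher genes were led by Zscan4 and other genes of the 2-cell embryo, and also held Dppa2, Calcoco2, Fbxo15 and Aqp3. The lower genes were the small nucleolar RNA AF357355, the peptide genes Trh and Apela, the Nodal co-receptor gene Tdgf1, the secreted Wnt inhibitor gene Sfrp1 and the receptor gene Epha2. Of the higher genes, 7 were at least 4-fold higher, while 0 genes were at least 4-fold lower. At a lower limit of 1.5-fold (0.585 on the log2 scale), 38 genes were higher, 0.316% of all, and 24 lower, 0.199%.

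**Figure D1:**
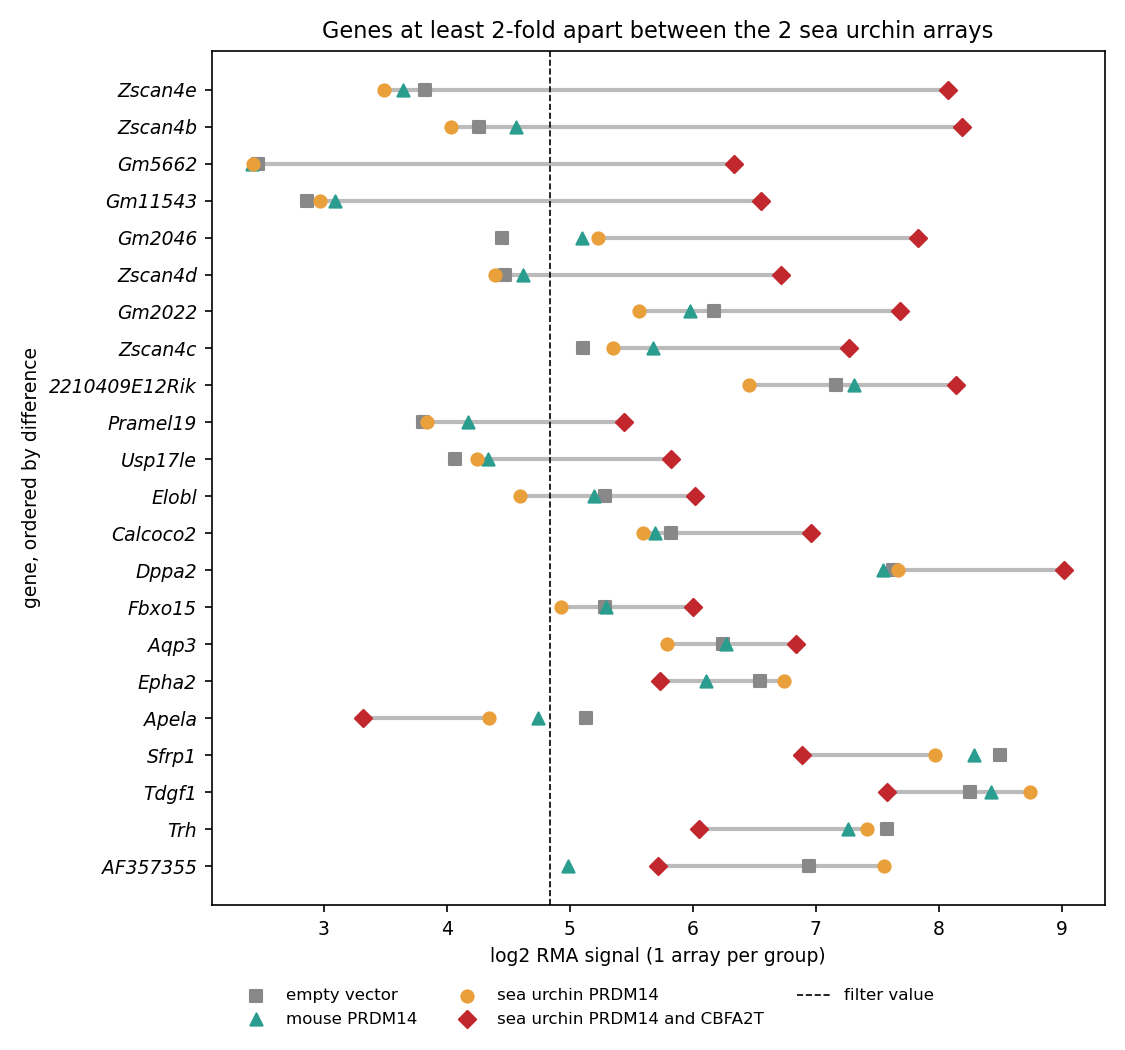
The log2 RMA signal (horizontal axis) of each gene at least 2-fold apart between the 2 sea urchin arrays (vertical axis), with 1 symbol for each of the 4 arrays, a bar joining the 2 arrays compared and a dashed line at the filter value of 4.84. The array with CBFA2T lies to the right of the other 3 for all 16 higher genes and to the left of them for 5 of the 6 lower genes, AF357355 being the exception. The choice of genes by this difference favours both. Over all genes past the filter that array was the highest for 27.3% and the lowest for 24.3%.

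The promoters of 3 Zscan4 genes are shown because they lead the higher genes and because they show how alike the members of this family are around their starts. The windows below run from 250 bases before to 50 bases after the gene start, as given by RefSeq for GRCm38.p6. Capitals mark TATAAAA, the letters of a TATA box, and each CG pair. The promoter of Trh, the protein-coding gene with the most negative difference, stands beside them as the one of the called genes with the most CG pairs. Zscan4b lies at chr7:10905001-10905300 on the minus strand, Zscan4c at chr7:11005495-11005794 on the plus strand, Zscan4d at chr7:11166099-11166398 on the minus strand and Trh at chr6:92244601-92244900 on the minus strand.
Zscan4b: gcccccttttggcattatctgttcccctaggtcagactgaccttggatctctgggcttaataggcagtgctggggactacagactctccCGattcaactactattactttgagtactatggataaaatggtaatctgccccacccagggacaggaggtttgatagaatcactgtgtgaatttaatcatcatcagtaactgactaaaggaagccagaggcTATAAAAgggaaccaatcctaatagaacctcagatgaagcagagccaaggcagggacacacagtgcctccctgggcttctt
Zscan4c: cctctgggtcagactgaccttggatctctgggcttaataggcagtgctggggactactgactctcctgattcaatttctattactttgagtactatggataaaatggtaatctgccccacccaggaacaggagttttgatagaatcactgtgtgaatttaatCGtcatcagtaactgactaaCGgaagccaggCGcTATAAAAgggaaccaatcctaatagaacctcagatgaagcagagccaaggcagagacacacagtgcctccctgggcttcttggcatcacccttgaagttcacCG
Zscan4d: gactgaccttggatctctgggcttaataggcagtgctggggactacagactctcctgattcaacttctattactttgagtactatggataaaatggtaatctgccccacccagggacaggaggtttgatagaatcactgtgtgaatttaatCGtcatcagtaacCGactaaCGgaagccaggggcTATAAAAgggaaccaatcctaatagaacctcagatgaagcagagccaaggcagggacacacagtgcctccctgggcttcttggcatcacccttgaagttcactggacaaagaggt
Trh: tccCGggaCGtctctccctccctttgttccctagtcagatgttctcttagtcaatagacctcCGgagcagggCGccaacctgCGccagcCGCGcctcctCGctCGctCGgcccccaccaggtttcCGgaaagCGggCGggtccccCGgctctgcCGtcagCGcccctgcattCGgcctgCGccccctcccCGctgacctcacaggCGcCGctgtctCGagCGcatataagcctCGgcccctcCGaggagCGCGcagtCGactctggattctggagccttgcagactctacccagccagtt

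The Zscan4b and Zscan4c windows are identical at 96.0% of 277 aligned bases, Zscan4b and Zscan4d at 97.7% of 266, and Zscan4c and Zscan4d at 97.2% of 289. The annotated gene starts are not at the same place in this shared sequence, so TATAAAA begins 31 bases upstream of the start in Zscan4b, 54 in Zscan4c and 65 in Zscan4d. Windows were found for 12 of the 22 genes past 2-fold. TATAAAA, searched on both strands, occurred in 3 of these 12, all of them Zscan4 genes, and in 5.48% of all 32851 promoter windows. GGTCTCTAA, letters known from PRDM14 binding motifs, occurred on either strand in 0 of the 12 and in 84 of all windows (0.256%). The absence of these letters from a window of 300 bases says nothing about where PRDM14 or CBFA2T binds.

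CG pairs were also counted in these windows. Of 8 higher genes with a window, 6 had at most 4 CG pairs, from 0 in Elobl and 1 each in Zscan4b and Gm11543 to 4 in Zscan4c, whereas Gm2046 had 6 and Aqp3 had 21. The 4 lower genes with a window had 7 in Apela and in Tdgf1, 10 in Epha2 and 28 in Trh. Over all promoter windows the median was 7, and 38.0% had at most 4. These are counts of letters in 12 windows, of which 3 are near copies of one another, and the difference between higher and lower genes was not tested.

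Zscan4 genes encode zinc finger proteins with a SCAN domain that act in telomere maintenance in stem cells and mark the 2-cell-like state. The Zscan4e signal was 3.82, 3.64, 3.49 and 8.07, a difference of 4.58. Zscan4b measured 4.26, 4.56, 4.04 and 8.18, a difference of 4.15. Both genes were dim on 3 arrays and bright on the array with CBFA2T alone.

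Zscan4d was at 4.47, 4.62, 4.39 and 6.72, a difference of 2.33. Zscan4c was at 5.10, 5.67, 5.36 and 7.27, a difference of 1.91. Zscan4a was at 7.06, 7.11, 6.93 and 7.52, a difference of 0.59, and was named after its values were seen. Thus the probe set of Zscan4a was bright on all 4 arrays and differed least of these 5. RefSeq lists Zscan4e as a pseudogene. Since the family members are near copies, which of them gave the signal on a given probe set is uncertain. In RNA of a whole culture, more cells that use these genes and more RNA per such cell cannot be told apart.

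The eIF1A-like genes of chromosome 12, relatives of a translation initiation factor that are used by the 2-cell embryo, formed a group of their own. Gm5662 was at 2.47, 2.42, 2.42 and 6.34, a difference of 3.91. Gm2046 was at 4.45, 5.10, 5.23 and 7.83, a difference of 2.60. Gm2022 was at 6.17, 5.98, 5.56 and 7.69, a difference of 2.13. Each was highest with CBFA2T, from a background level in Gm5662 and from a clear level in Gm2022. A different probe set of Gm5662 differed by only 0.41, from 3.11 to 3.52, so the size of this gene's change depends on the probe set. That probe set was the brighter on the empty vector, mouse PRDM14 and sea urchin PRDM14 arrays. The one used for Gm5662 was chosen, and passed the filter, through its value with CBFA2T. Gm2016 (0.88) and Gm8300 (0.33), named after their values were seen, lay above 0 and below 2-fold.

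Of the other genes of the 2-cell embryo, Gm11543, a gene of chromosome 11, was at 2.87, 3.09, 2.97 and 6.56, a difference of 3.59. Pramel19, of a family of leucine-rich repeat proteins, was at 3.81, 4.17, 3.84 and 5.44 (1.60), and Usp17le, of a deubiquitinase family, at 4.07, 4.33, 4.25 and 5.82 (1.57). These 3 genes reached the filter value on the array with CBFA2T and on no other. Elobl, a gene resembling that of elongin B, was at 5.29, 5.20, 4.60 and 6.02, a difference of 1.43. Calcoco2, which encodes a receptor for selective autophagy, was at 5.82, 5.69, 5.60 and 6.96, a difference of 1.37. Elobl and Calcoco2 differ in their pattern: the sea urchin PRDM14 array was 0.69 below the empty vector for Elobl and 0.22 below it for Calcoco2.

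Below 2-fold, Cwc22, a splicing factor gene with copies in the mouse genome, differed by 0.98 and Tmem92, a membrane protein gene used as a marker of 2-cell-like cells, by 0.74. Cwc22 had 8 probe sets, of which 7 held the same values (5.46, 5.54, 5.44 and 6.42) and the other was dim and differed by -0.20. Tmem92 was dim, at 4.45, 4.26, 4.26 and 5.0.

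The genes known from the 2-cell embryo were not all higher. Of the 50 genes on the list, 46 were measured by a probe set of their own, and 12 of these 46 were at least 2-fold higher and 0 lower, beside 18 higher and 6 lower among all 22180 genes. The list was written with earlier results of these data known, so its count is a description and no evidence of a direction. The median difference over the 46 was 0.18, with 31 above 0 and 15 below, against 0.002 for all 22180 genes. Of the 46, 24 passed the filter, 8 of them through the array with CBFA2T alone.

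Many defining genes of the 2-cell-like state stayed dim on both sea urchin arrays. Zfp352 measured 4.04 without CBFA2T and 3.99 with it, and Duxf3, the gene of the transcription factor DUX, 3.70 and 3.40. Tcstv1 was at 2.90 and 3.18, and Tcstv3 at 2.99 and 3.88, a difference of 0.88. Tdpoz1 (-0.28), Tdpoz3 (0.49), Tdpoz4 (-0.04), Usp17lb (0.17) and Usp17lc (0.15) were also dim. Obox3, a homeobox gene of the early embryo, passed the filter and lay lower, at 5.09, 5.19, 5.13 and 4.69. Usp17ld was bright on all 4 arrays, between 8.48 and 8.62, and differed by -0.06. These genes were named after their values were seen.

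**Figure D2:**
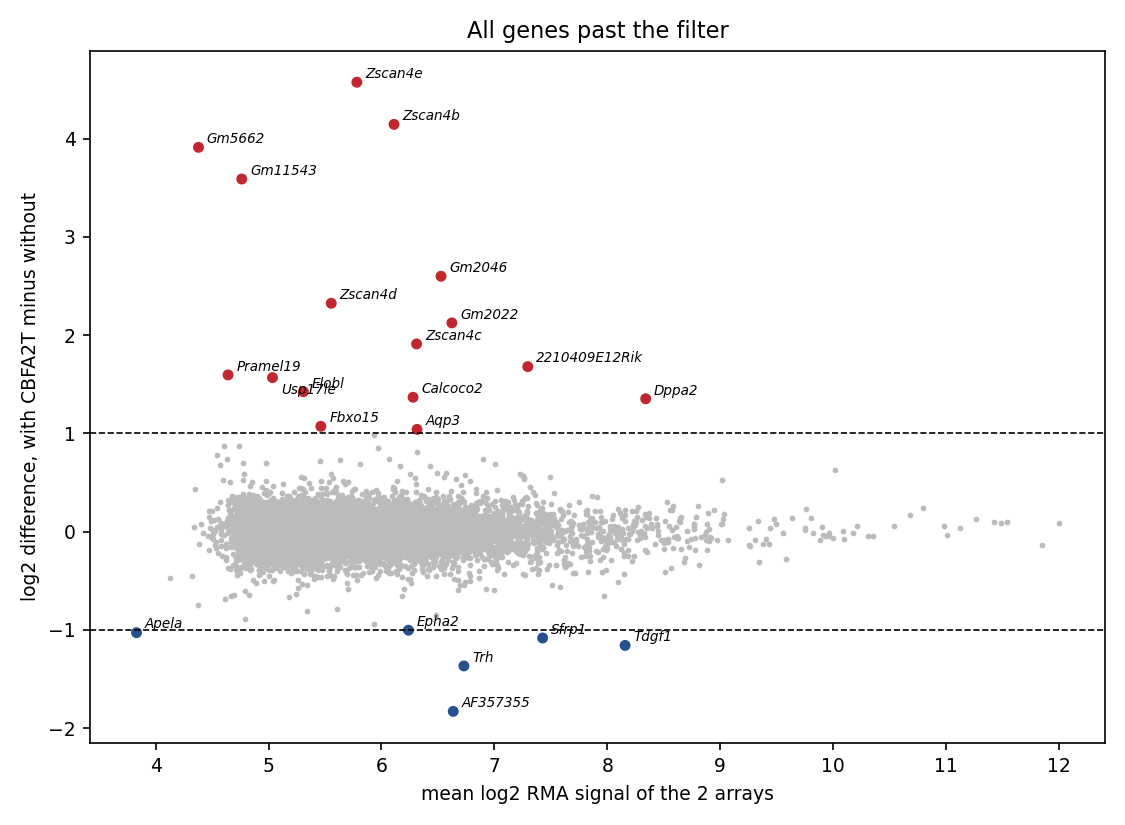
Each of the 12042 genes past the filter is a point, with the mean log2 RMA signal of the 2 sea urchin arrays on the horizontal axis and the log2 difference (with CBFA2T minus without) on the vertical axis, and dashed lines at 2-fold. The 16 named red points and 6 named blue points lie outside the cloud, in which 91.0% of genes differed by at most 0.25. Dppa2 and Tdgf1 are the called genes with the highest mean signals.

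Probe sets that the annotation assigns to several genes carry the same families. Of 893 such probe sets past the filter, 28 were at least 2-fold higher with CBFA2T, 3.14%, and 0 (0%) were lower. These 28 held 21 distinct sets of values. The 28 included 2 Zscan4 probe sets, with differences of 3.42 and 4.36, from 3.26 and 3.48 without CBFA2T to 6.68 and 7.84 with it. They also included 10 of the 11 probe sets past the filter of the Gm4301 to Gm4340 group, with differences from 1.61 to 3.31.

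The Pramel family accounted for 14 of the 28, from 22 Pramel probe sets past the filter, with differences from 1.0 to 2.46. On these 14, the empty vector, mouse PRDM14 and sea urchin PRDM14 arrays lay between 3.59 and 5.04, and the array with CBFA2T between 5.06 and 7.04. The probe set of Gm4027, BB287469, Gm5039 and Gm2022 was at 5.46, 5.40, 5.32 and 7.92, a difference of 2.61. Of the 28, 12 reached the filter value on the array with CBFA2T alone, 9 of them in the Pramel family and 2 in the Zscan4 family, so the counts of these families past the filter follow in part from the filter. Because these probe sets match several near copies, they do not show which member was brighter, or whether a whole family was. Probe sets of single members in these groups differed less, Pramel20 by 0.48 and Gm4340 by 0.73. Those of Pramel16 and Pramel31 were dim and differed by 0.17 and -0.02, whereas Pramel19, described above, differed by 1.60. These members were picked with their values in view. Of 5567 probe sets past the filter with no gene in the annotation, 65 were past 2-fold upward with CBFA2T (1.17%) and 43 downward (0.772%).

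**Figure D3:**
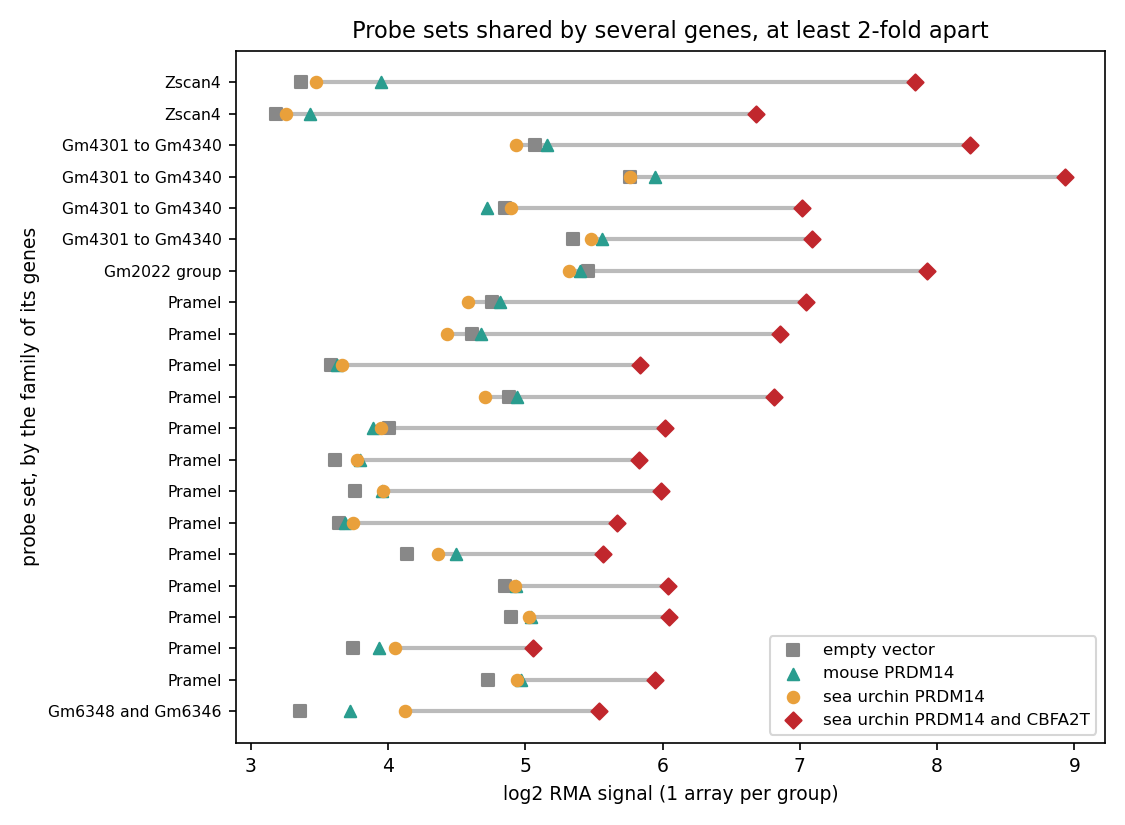
The log2 RMA signal (horizontal axis) of the probe sets shared by several genes that were at least 2-fold apart, 1 row for each of the 21 distinct sets of values, labelled by family (vertical axis), with 1 symbol per array and a bar joining the 2 sea urchin arrays. The array with CBFA2T lies to the right in all 21, as the selection favours, and the other 3 arrays are apart most in the Gm6348 and Gm6346 row, at 3.36, 3.72 and 4.12.

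Among the regulators of the 2-cell program, Dppa2 stood apart. DPPA2 is a DNA-binding protein of pluripotent cells that works with DPPA4. Dppa2 was bright on every array, at 7.62, 7.55, 7.66 and 9.02, a difference of 1.35 or 2.55-fold. The first 3 arrays lay within a narrow band and the array with CBFA2T far above them. Its partner Dppa4 measured 5.88, 5.86, 6.27 and 6.28, with a difference of 0.01, and so was higher on both sea urchin arrays alike. Dppa3 differed by 0.18 and Dppa5a by 0.03. Of 17 genes known to promote the program, 2 were past 2-fold upward, Dppa2 and Zscan4c, where 0.133% of all genes were, and the median difference was 0.01, with 9 above 0 and 8 below.

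Of 29 genes known to repress the 2-cell program that passed the filter, 17 differences were above 0 and 12 below, and the median was 0.05. None was 2-fold apart, which is near the share over all genes and so no result about these genes. The 1 past 1.5-fold, upward, where 0.316% of all genes were, was Usp7, the gene of a deubiquitinase found in a Polycomb complex, at 6.35, 6.27, 6.19 and 6.79 (0.60). Lin28a had the most negative difference, -0.28, and Trim28, the gene of a co-repressor of transposable elements, differed by 0.23. The co-repressor gene Kdm1a differed by 0.11 and the chromatin assembly gene Chaf1a by 0.02.

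For some of the higher genes the sea urchin PRDM14 array was itself low. The sea urchin PRDM14 array was the lowest of the 4 for 9 of the 16, which the choice of genes by this difference favours. Over all genes past the filter it was the lowest for 22.4%. Of the 16, 7 reached the filter value on the array with CBFA2T alone, against 1.25% of all genes past the filter. The choice of genes also favours an array with CBFA2T far above the others. In 12 of the 16 that array was at least 2-fold above each of the other 3, against 0.0997% of all genes. The 4 that did not were 2210409E12Rik, Elobl, Fbxo15 and Aqp3. 2210409E12Rik, a transcribed pseudogene, was at 7.17, 7.31, 6.46 and 8.14, a difference of 1.68. Aqp3, the gene of a water and glycerol channel, was at 6.25, 6.27, 5.79 and 6.84, a difference of 1.04. In both, the empty vector and mouse PRDM14 arrays lay near one another and between the 2 sea urchin arrays.

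Fbxo15, an F-box gene that is a known target of OCT4 and SOX2, had the same arrangement, at 5.29, 5.29, 4.93 and 6.0, a difference of 1.07. It was the 1 of 27 naive pluripotency genes past 1.5-fold upward, where 0.316% of all genes were. Nanog, a core factor of the naive state, was at 9.07, 8.99, 8.75 and 9.28, a difference of 0.52. Klf2 was higher by 0.45, Sox15 by 0.41 and Klf5 by 0.33, all below 1.5-fold. Over the 27, 19 differences were above 0 and 8 below, with a median of 0.08. The sea urchin PRDM14 array was the lowest of the 4 for 15 of the 27, against 22.4% of all genes past the filter. Laptm5 had the most negative difference, -0.44, at 6.47, 6.08, 6.0 and 5.56. The choice of Nanog, Klf2, Sox15 and Klf5 was made with their values in view.

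The summed linear signal of 10 stem cell markers was 1458 with the empty vector, 1495 with mouse PRDM14, 1273 with sea urchin PRDM14 and 1486 with CBFA2T. The lowest sum was thus on the array that the comparison subtracts. Nanog carried most of the difference between the sums with sea urchin PRDM14 and with CBFA2T. Without Nanog the sums were 922, 988, 841 and 866, so that of the sea urchin PRDM14 array was still the lowest. All 10 markers passed the filter, with 7 differences above 0 and 3 below. Of 20 core pluripotency genes past the filter, 11 lay below 0 and 9 above, with a median of -0.02. Below 0 they included L1td1 (-0.47) and Utf1 (-0.43), picked with their values in view. The part of this in the differences above was not tested.

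Among the lower genes, both peptide genes were lowest on the array with CBFA2T. Trh encodes the precursor of thyrotropin-releasing hormone. It was at 7.58, 7.26, 7.41 and 6.05, a difference of -1.37, or 2.58-fold lower. Apela encodes a peptide ligand of the apelin receptor that stem cells secrete. It was at 5.14, 4.74, 4.34 and 3.32, a difference of -1.03, and lay below the filter value on both sea urchin arrays. Sfrp1, of the secreted frizzled-related proteins that bind Wnt ligands, was at 8.49, 8.28, 7.97 and 6.89, a difference of -1.08. Trh, Sfrp1 and Apela were at least 2-fold lower with CBFA2T than on each of the other 3 arrays.

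For Trh the other 3 arrays were alike, while for Sfrp1 and Apela the sea urchin PRDM14 array was already below the empty vector, by 0.52 and 0.79 on the log2 scale. Of 5 genes for apelin and TRH ligands, receptors and processing enzymes past the filter, the other 3 differed by little, Trhr2 by -0.004, Pgpep1 by 0.07 and Pam by 0.13. Of 12 secreted Wnt inhibitor genes past the filter, 8 lay below 0 and 4 above, with a median of -0.07. Notum, which encodes an enzyme that removes the lipid from Wnt proteins, lay the other way (0.49), at 5.31, 5.55, 5.43 and 5.92. Of 24 genes of Wnt ligands and receptors past the filter, 12 lay on each side of 0, and Lgr4, the gene of an R-spondin receptor, was lower by 0.65 on the log2 scale (6.14, 5.88, 6.51 and 5.86).

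Tdgf1 encodes CRIPTO, the co-receptor through which NODAL signals. It was at 8.25, 8.42, 8.74 and 7.58, a difference of -1.16, with the sea urchin PRDM14 array the highest of the 4 and the array with CBFA2T the lowest. Lefty2, a secreted inhibitor and target of NODAL, was at 6.54, 6.08, 7.0 and 6.46, a difference of -0.54. Lefty1 was at 6.59, 6.36, 6.92 and 6.43, a difference of -0.49. For both LEFTY genes the sea urchin PRDM14 array was the highest and the mouse PRDM14 array the lowest. The array with CBFA2T lay between mouse PRDM14 and the empty vector. Nodal itself differed by -0.14 and the feedback gene Pmepa1 by -0.29. Of 16 genes of the pathway past the filter, 13 lay below 0 and 3 above, with a median of -0.09. Tdgf1 was the only one past 1.5-fold, downward, where 0.199% of all genes were. The other pathway members were named as context for Tdgf1.

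Epha2, a receptor tyrosine kinase for ephrin-A ligands, was at 6.55, 6.11, 6.74 and 5.74, a difference of -1.003, which is at the threshold itself. Cyclic loess normalization of the arrays moved it to -0.997, below 2-fold. Of 9 ephrin receptor genes past the filter, 8 lay below 0 with a median of -0.06, and Epha4 was the next at -0.18. Of 7 ephrin genes, 6 lay above 0, with a median of 0.05. Gja1, the gene of connexin 43, a protein of gap junctions, was the largest lower gene short of 2-fold, at 6.39, 5.38, 6.40 and 5.46 (-0.94). The Gja1 signal was slightly lower still with mouse PRDM14 than with CBFA2T.

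AF357355 is a small nucleolar RNA of the imprinted Dlk1-Dio3 region of chromosome 12. It had the most negative difference of all genes, -1.83, at 6.95, 4.98, 7.55 and 5.72. The mouse PRDM14 array was lower still, so that the array with CBFA2T lay between mouse PRDM14 and the empty vector. A different small nucleolar RNA of the region, AF357425, was at 6.64, 5.73, 6.90 and 6.06 (-0.84). Rian, the maternally expressed noncoding RNA gene that hosts such small RNAs, was at 5.56, 4.56, 5.15 and 4.51 (-0.64).

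The gene list for the region holds no microRNA genes, and its 6 members past the filter lay below 0, with a median of -0.52. Other genes of the region went the other way: the microRNA genes Mir329 (5.59, 5.01, 5.04 and 5.58) and Mir666 (5.86, 5.62, 5.54 and 5.80) differed by 0.54 and 0.26, and were picked with their values in view. The protein-coding gene Dlk1 differed by -0.40, with the sea urchin PRDM14 array above the other 3 (5.87, 5.83, 6.24 and 5.84). Meg3, the best known noncoding RNA of the region, was dim and differed by -0.01. Of 19 imprinted genes outside the region, 9 lay above 0 and 10 below, with a median of -0.002.

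**Figure D4:**
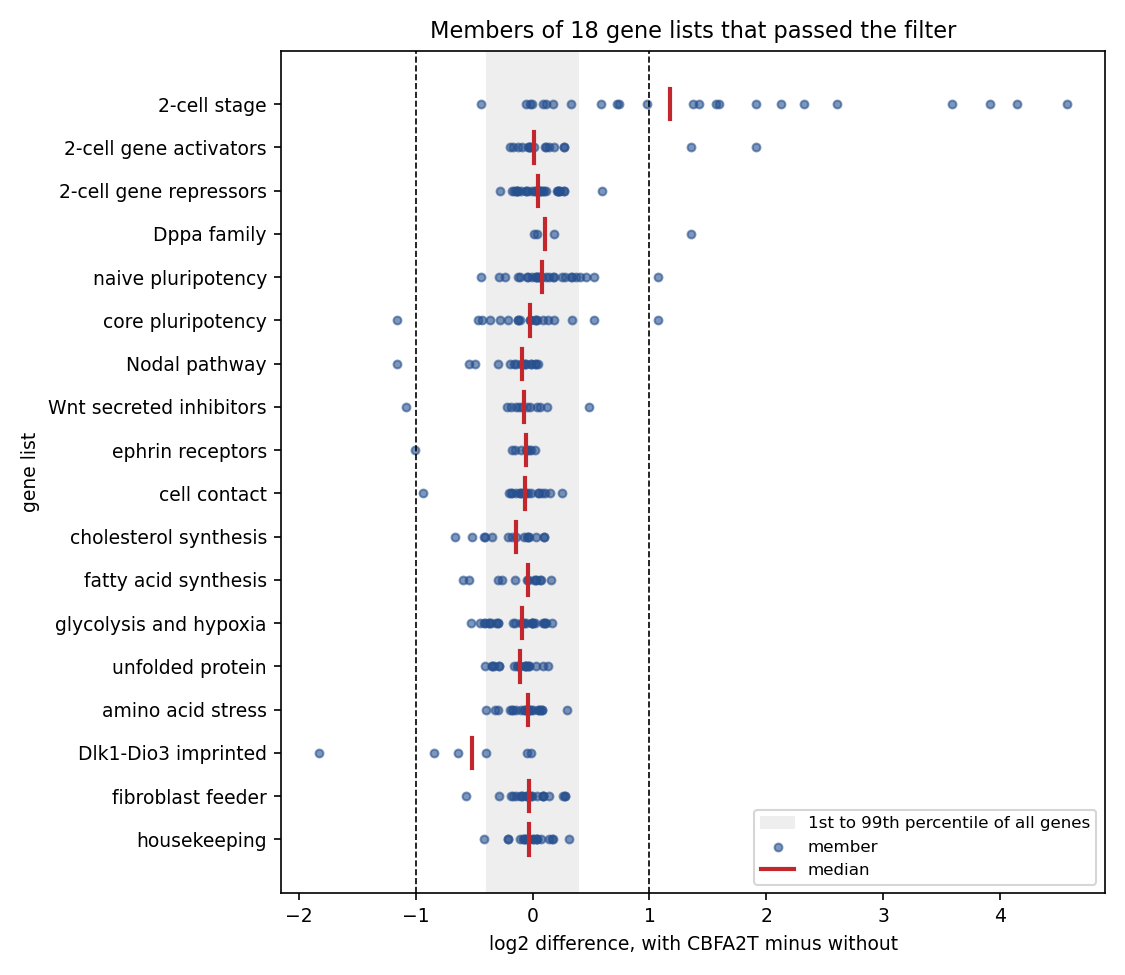
The log2 difference with CBFA2T minus without (horizontal axis) for each member past the filter of 18 gene lists (vertical axis). Points are genes, red bars are list medians, the grey band runs from the 1st to the 99th percentile of all genes and dashed lines mark 2-fold. Members of the 2-cell stage list reach 4.58. Its median over the 24 members shown is 1.17, of which 8 passed the filter through the array with CBFA2T alone, and 0.18 over all 46 measured. The 6 members shown of the Dlk1-Dio3 list have a median of -0.52.

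Most cholesterol synthesis genes lay slightly lower with CBFA2T. Cyp51, the lanosterol demethylase, was at 5.38, 5.04, 5.51 and 4.85, a difference of -0.67. It was the only cholesterol synthesis gene past 1.5-fold, downward, where 0.199% of all genes were. Fdps, which makes farnesyl diphosphate, differed by -0.52, Hmgcs1 by -0.42, Nsdhl by -0.41 and Lss by -0.35. Of 15 cholesterol synthesis genes past the filter, 12 lay below 0 with a median of -0.14, and the array with CBFA2T was the lowest of the 4 for 10. Over all genes the median was -0.0001, and the array with CBFA2T was the lowest for 24.3%.

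Insig1, a sterol-responsive gene of the endoplasmic reticulum, was at 7.36, 7.56, 7.34 and 7.0, a difference of -0.34. Of 12 genes of sterol regulation and uptake past the filter, 9 lay below 0 and 3 above, with a median of -0.05. The fatty acid desaturase genes Fads1 and Fads2 differed by -0.60 and -0.55, while Fasn, the fatty acid synthase gene, differed by 0.03. Of 13 fatty acid synthesis genes, 7 lay below 0 and 6 above, with a median of -0.04. The choice of Fdps, Hmgcs1, Nsdhl, Lss, Fads2 and Fasn was made with their values in view.

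Of 26 glycolysis and hypoxia genes past the filter, 20 lay below 0 with a median of -0.09. None was past 1.5-fold, near the share over all genes (0.316% higher and 0.199% lower) and so no result about these genes. Bnip3, a mitophagy gene that responds to hypoxia, was at 5.29, 5.29, 5.56 and 5.03 (-0.53), and Pgk1, a glycolytic enzyme gene, at 7.89, 7.98, 7.91 and 7.49 (-0.42). The array with CBFA2T was the lowest of the 4 for 16 of these 26, against 24.3% of all genes past the filter. Gapdh, a glycolytic enzyme gene often used as a reference, differed by 0.17.

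The unfolded protein genes had a different arrangement over the arrays. Of 19 past the filter, 16 lay below 0 with a median of -0.11, yet the array with CBFA2T was the lowest for only 3 of them and the sea urchin PRDM14 array was the highest for 14. Over all genes past the filter, these shares were 24.3% and 25%. Hsp90b1, a chaperone gene of the endoplasmic reticulum, was at 7.82, 7.78, 8.16 and 7.75 (-0.41). Hspa5, which encodes the chaperone BiP, was at 6.15, 6.21, 6.49 and 6.20 (-0.29). For both genes the sea urchin PRDM14 array stood above 3 arrays that were alike. Of 23 amino acid stress genes past the filter, 17 lay below 0, with a median of -0.04. Unlike for the unfolded protein genes, the array with CBFA2T was the lowest for 13 of these 23. The sea urchin PRDM14 array was the highest for 2. Hspa5 and Gapdh were picked with their values in view.

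The mouse genes of the introduced proteins and their relatives gave no check of the labels. Prdm14 was at 5.71, 5.57, 5.77 and 5.53, and the place of its probes relative to the deletion was not known here. Each group name therefore means the array labelled with it. Cbfa2t2, the mouse partner of PRDM14, was at 5.42, 5.62, 5.53 and 5.10, a difference of -0.43. Cbfa2t3 differed by 0.02 and Runx1t1 by -0.01. Of 23 genes for PRDM14, CBFA2T proteins and their partners in co-repressor complexes, 13 lay below 0 and 10 above. None was past 1.5-fold, near the share over all genes (0.316% higher and 0.199% lower) and so no result about these genes. Whether a probe set binds sea urchin transcripts was not tested.

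The remaining genes among the next 10 in each direction lay between 1.5-fold and 2-fold. On the higher side they were the histone gene H2ac1 (0.81), the ribonuclease P subunit gene Rpp25 (0.74), Uba1y (0.74), Slain1 (0.72), Klhl13 (0.70), Naa50 (0.69), Cdk2ap1 (0.69) and Zfp229 (0.68). Klhl13 and Zfp229 reached the filter value on the array with CBFA2T alone. Another probe set of Cdk2ap1 differed by -0.05, and another of Slain1, which was dim, by 0.11. For Rpp25 the sea urchin PRDM14 array was the one apart, at 7.26, 7.22, 6.53 and 7.27. H2ac1 was instead high with CBFA2T, at 5.79, 5.83, 5.91 and 6.72. On the lower side they were Rabggtb (-0.88), Zfp955b (-0.80), Ubr7 (-0.79), Btbd35f17 (-0.74) and Grsf1 (-0.65), in addition to Gja1, AF357425, Cyp51, Lgr4 and Rian.

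Without replicates, the spread over genes gives the only scale for these differences. The SD of the difference over the 12042 genes was 0.178, and from 0.145 to 0.197 in 5 bins of mean signal, so dim genes did not spread much more than bright ones. In absolute size, 99% of the differences were at most 0.47. Where a gene had a pair of probe sets past the filter (394 genes), their differences were apart by a median of 0.12. The arrays correlated at Pearson's r of 0.988 over all probe sets, and their medians lay between 4.54 and 4.55.

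Of the 16 higher genes, 8 were below the filter value on the sea urchin PRDM14 array, so background limits how well their folds are known. Genes of chromosome 16, which holds Dppa2, Naa50 and Usp7, had a median difference of 0.07 over 359 genes. The medians of the other autosomes and the X chromosome lay between -0.03 and 0.02. The part of this shift in the differences of Dppa2, Naa50 and Usp7 was not tested. Chromosome 11 held 4 of the 16 higher genes, Gm11543, 2210409E12Rik, Elobl and Calcoco2, and 8.86% of all genes past the filter. Its median difference was 0.02 over 1067 genes. Chromosome 7 held 5 of the 16 and 8.5% of all genes, and chromosome 12 held 3 and 3.45%.

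STO feeder cells contribute RNA to such cultures. The summed linear signal of 11 fibroblast markers was 818 with the empty vector, 866 with mouse PRDM14, 835 with sea urchin PRDM14 and 757 with CBFA2T. Of these 11, 9 passed the filter, and 5 differences were above 0 and 6 below. Single marker values lay between 3.52 and 8.09 over the 4 arrays. The largest difference among 23 fibroblast genes past the filter was that of Fn1, the fibronectin gene (7.79, 8.09, 7.86 and 7.30, -0.57), and the list's median was -0.03. The part of feeder RNA in the lower genes was not tested. The summed signal of 6 primitive endoderm markers was 348, 312, 339 and 332. Of 21 housekeeping genes past the filter, 10 lay above 0 and 11 below, with a median of -0.03.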

How the data were processed

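Total RNA of 4 groups was measured on 1 GeneAtlas array each of strip 2, and arrays of the other strip in the design text were not analysed here. The values the authors deposited are on the log2 scale and, per the submitters' processing notes, come from RMA, which corrects background, equalizes the arrays' distributions and combines the probes of a probe set. A shift shared by most genes therefore cannot be seen. The RMA version, the set of arrays normalized and the genome build were not stated in these sources. Genes were named from the platform annotation, and promoters came from RefSeq for GRCm38.p6. Differences were called at 2-fold, with no test. Named genes were all those past 2-fold, the next 10 in each direction without predicted genes and small RNAs, Prdm14 and the CBFA2T family, and up to 6 members per list. Members and lists were chosen with earlier results of these data known. Alternatives were a 1.5-fold threshold, no filter or 2 other filters, cyclic loess (limma 3.58.1), other uses of probe sets, and leaving out chromosomes 11 and 16 or predicted genes and small RNAs. The calling step was tested on simulated data. Python 3.11.15, pandas 2.3.3 and R 4.3.3 were used.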

Additional observations from a re-analysis of the deposited data

Results flagged for a closer look

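Signals appeared outside the genes compared. Among 893 probe sets that match several genes, 28 were at least 2-fold higher with CBFA2T, mostly of the Pramel, Gm4301 to Gm4340 and Zscan4 families described above. Among 5567 probe sets past the filter to which the annotation gives no gene, 65 were past 2-fold upward (1.17%) and 43 downward (0.772%), in 104 distinct sets of values. The largest of these was at 6.24, 6.71, 5.88 and 9.72, and the next at 6.19, 6.86, 6.43 and 10.01, both highest with CBFA2T.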

How the results depend on the processing

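With a 1.5-fold threshold, 38 genes were higher and 24 lower in place of 16 and 6. Under the other alternatives the counts lay between 11 and 18 higher and between 5 and 6 lower. The stricter filter at 5.65 lost Pramel19 and Apela, the filter on the mean of the 2 arrays lost those and Gm5662 and Gm11543, and cyclic loess lost Epha2. Averaging a gene's probe sets gave 2.16 for Gm5662, 0.41 for Slain1 and 0.32 for Cdk2ap1. The median of the 2-cell stage list, 1.17 over the members past the filter, became 0.18 without a filter, 1.74 under the stricter filter, 0.85 under the filter on the mean of the 2 arrays, 1.40 with probe sets averaged and 0.98 without chromosomes 11 and 16. That of the Dlk1-Dio3 list was -0.84 with the stricter filter, which left 3 members. The alternatives differ in which members they keep, and no further cause was tested. Of 252 list medians under the alternatives, 18 had the opposite sign to the main value. Signal near background limits the folds of dim genes. No paired analysis was possible because each group had 1 array.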

Other observations

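Of 10138 genes that did not reach the filter value, 2 were at least 2-fold higher with CBFA2T, Gm2035 of chromosome 12 (2.98, 2.92, 2.89 and 4.34) and D13Ertd608e of chromosome 13 (2.44, 2.66, 2.57 and 3.84), and 0 were lower. Both were dim on every array. The metallothionein gene Mt2, among the brightest genes, was at 9.67, 9.91, 9.71 and 10.34, a difference of 0.63, and was picked after its values were seen. The Polycomb-associated gene Epop was at 7.29, 7.22, 7.22 and 7.77 (0.55), and the cyclin gene Ccnd3 at 6.59, 6.62, 6.02 and 6.57 (0.54). For Epop the array with CBFA2T stood apart from the other 3, and for Ccnd3 the sea urchin PRDM14 array did.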
